A study of Mus musculus with 8 samples.

Results

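The photoreceptor outer segment is a stack of membrane discs carried on a modified cilium, and 10 genes that build, fill or surround it were examined in retinas lacking lysophosphatidylcholine acyltransferase 1 (Lpcat1). They were Prph2, Rom1, Rp1, Cdhr1, Prom1, Aipl1, Unc119, Prcd, Impg1 and Impg2, chosen by name and function from the 20018 genes that could be named on the array. There they were represented by 14 of 55681 probes, matched through the RefSeq transcript accession of each probe. All 14 probes passed the filter on dim probes, as did 33975 probes in all. Prph2, Rp1, Prom1 and Prcd had 2 probes each, and 6 genes had 1 probe.

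Total RNA of the whole retina was compared between Lpcat1 wildtype (WT) and Lpcat1 knockout (KO) mice of strain C57BL/6 at 2 weeks of age, with 4 samples per genotype and 1 array per sample. According to the study's methods, the KO line was made on the C57BL6/N background and bred with C57BL6/J so that no animal used was homozygous for the Crb1 allele rd8, a cause of retinal degeneration in its own right. The study compared these transcript levels to look for why photoreceptors die in KO mice. Nothing in the labels says that the 4 samples of a genotype came from separate animals, so p-values measure the spread between samples, which may be technical.

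Discs form at the base of the outer segment, are pushed outward as new ones are added and are shed at the tip. Prph2 and Rom1 are tetraspanins that hold the curved disc rim. Rp1 is a doublecortin protein of the axoneme that aligns the discs, Prom1 is a membrane protein of disc evaginations and Cdhr1 is a cadherin at the edge of forming discs. Prcd is a small protein of the disc membrane. Aipl1 is the chaperone of phosphodiesterase 6, and Unc119 carries acylated proteins such as transducin to the outer segment. Impg1 and Impg2 are proteoglycans of the matrix around the outer segments. Loss of several of these genes causes photoreceptor degeneration.

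Because the members include the rim partners Prph2 and Rom1 and the matrix partners Impg1 and Impg2, the sequences just upstream of these genes are shown. They are the 250 bases before the transcription start in RefSeq, build GRCm38.p6, read in the direction of transcription. The windows are chr17:46910228-46910477 on the + strand for Prph2, chr19:8929357-8929606 on the - strand for Rom1, chr9:80465439-80465688 on the - strand for Impg1 and chr16:56204063-56204312 on the + strand for Impg2. Capitals mark TAATC or its reverse complement GATTA, the core letters read by the photoreceptor homeobox factors Crx and Otx2.
Prph2: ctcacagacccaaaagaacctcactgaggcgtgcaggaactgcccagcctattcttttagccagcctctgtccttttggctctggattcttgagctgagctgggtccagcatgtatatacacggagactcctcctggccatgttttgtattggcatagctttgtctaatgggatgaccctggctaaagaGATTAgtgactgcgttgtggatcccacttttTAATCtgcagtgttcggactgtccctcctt
Rom1: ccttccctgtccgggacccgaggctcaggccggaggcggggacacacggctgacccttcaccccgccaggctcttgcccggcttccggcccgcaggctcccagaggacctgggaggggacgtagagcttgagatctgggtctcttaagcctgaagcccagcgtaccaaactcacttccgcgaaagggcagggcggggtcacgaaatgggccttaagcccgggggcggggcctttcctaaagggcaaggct
Impg1: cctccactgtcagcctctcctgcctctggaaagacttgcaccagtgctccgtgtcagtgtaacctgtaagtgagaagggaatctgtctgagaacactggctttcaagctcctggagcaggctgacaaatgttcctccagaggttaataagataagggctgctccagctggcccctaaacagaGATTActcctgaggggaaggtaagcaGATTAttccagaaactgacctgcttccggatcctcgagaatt
Impg2: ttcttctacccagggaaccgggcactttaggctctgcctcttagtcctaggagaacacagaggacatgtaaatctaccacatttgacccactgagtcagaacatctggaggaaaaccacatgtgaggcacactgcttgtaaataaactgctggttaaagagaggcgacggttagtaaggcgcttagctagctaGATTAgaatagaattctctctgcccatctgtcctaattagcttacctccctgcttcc

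In Prph2 the letters lay 61 to 57 and 30 to 26 bases before the start, and in Impg1 68 to 64 and 42 to 38. In Impg2 they lay 57 to 53 bases before the start, and the Rom1 window held none. Windows were found for 9 members, and not for Rp1. Of these 9 genes, 7 had a match in at least 1 window (7 of 12 windows, since Prom1 and Unc119 had several). Among all 32851 windows of this length 19.8% held TAATC on either strand. The hexamer TGCTGA, part of the response element of the rod factor Nrl, was found upstream of Aipl1 and Unc119 only among these 9 genes, in 2 of 12 windows, and in 16.1% of all windows (either strand). The 2 motifs can share at most 2 bases, and these matches describe letters, not binding.

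All 14 probes were lower in KO than in WT on average, by small amounts. A level is the log2 of a probe's signal after division by the 75th percentile of its array. A difference is the mean log2 level in KO minus that in WT, with its standard error (SE), and limma's p was adjusted over all 33975 probes by the Benjamini-Hochberg method. Over 1 probe per gene, the brighter where there were 2, the differences ran from -0.27 (Impg2) to -0.099 (Impg1), with a median of -0.20, and 10 of 10 genes were lower. Over all tested probes the median was -0.037, and 62.0% of probes were lower. As a share of the WT signal, the KO signal was between 82.2% and 93.4%. A probe was called when its adjusted p was under 0.05 and its fold change over 1.2, that is, a difference beyond 0.263 on the log2 scale. By this rule 2 of 14 probes were called, both lower, in Prph2 and Impg2. With the replicate number, which is also the slide column, as a block, 0 of 14 were called (limma adjusted p = 0.0543 for Impg2 and 0.0577 for this Prph2 probe), while an unadjusted p under 0.05 was found for 13 of 14, against 8948 of all 33975 probes. Calls over all probes amounted to 2.92%, with 1.54% lower and 1.39% higher. At any fold change, 7 of 14 probes in 6 genes had an adjusted p under 0.05 and were lower, against 3.31% of all tested probes (5.51% in either direction). This count was 1 or 2 when any single array other than KO replicate 1 was removed (7 without KO replicate 1), 1 with quantile normalization or normexp, 2 with cyclic loess or a median shift, and 0 with no filter on dim probes or with the block. In 11 of 14 probes, from 7 genes, the highest KO sample was under the lowest WT sample, against 11.4% of all tested probes (17.5% without overlap in either direction). In a whole retina, fewer photoreceptors and less RNA per photoreceptor cannot be told apart.

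**Figure D1:**
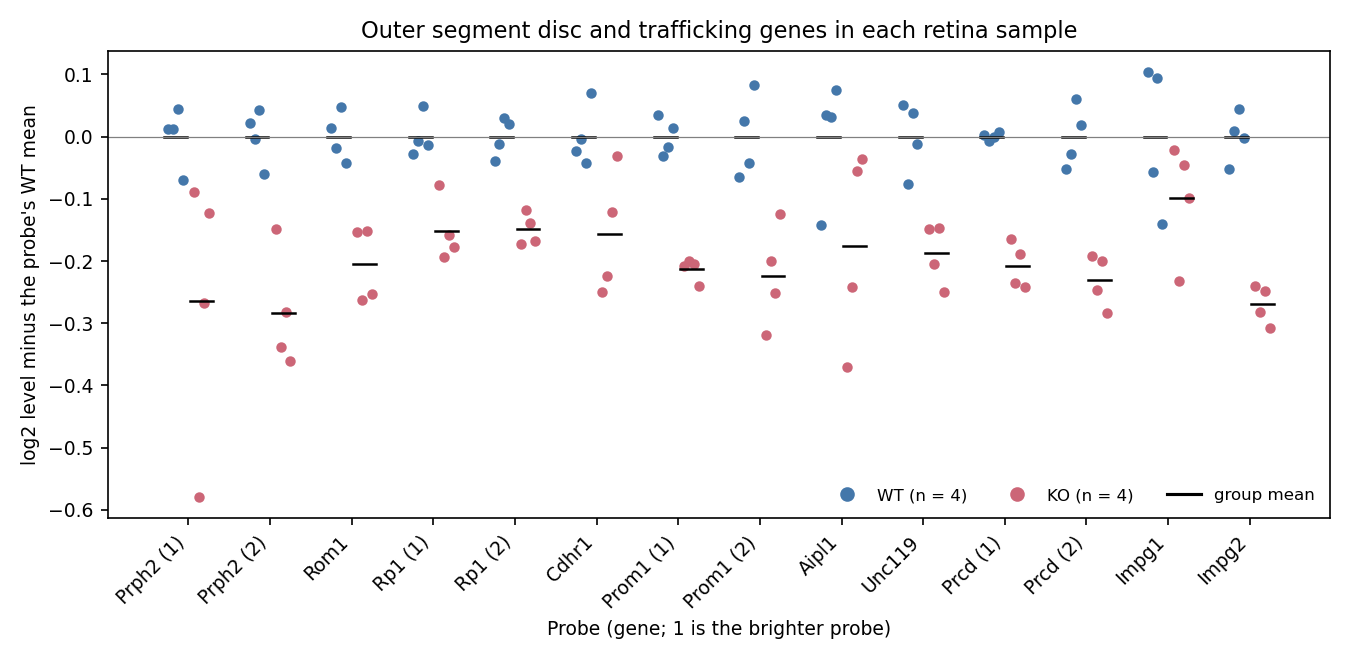
Level of each of the 14 probes in each sample, as log2 signal minus the probe's WT mean (vertical axis), with WT in blue, KO in red and short lines for the group means (n = 4 each). The KO means differ from the WT means by -0.28 to -0.099, and KO replicate 2 stands apart at the brighter Prph2 probe.

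The disc rim tetraspanins were examined first. The brighter Prph2 probe had levels of 8.69, 8.69, 8.72 and 8.61 in WT and 8.59, 8.10, 8.41 and 8.55 in KO. All 4 KO values lay below WT, but KO replicate 2 was far below the other KO samples, and the SD was 0.22 in KO against 0.049 in WT. The difference of -0.26 (SE 0.10, limma adjusted p = 0.167) was not called, and it was -0.16 without KO replicate 2 (limma adjusted p = 0.193). The other Prph2 probe read 8.03, 8.0, 8.05 and 7.94 in WT and 7.86, 7.67, 7.72 and 7.64 in KO. All KO samples lay below WT, with an SD of 0.095 in KO and 0.045 in WT, and KO replicate 1 was the closest to WT. This probe fell by 0.28 on the log2 scale (SE 0.054, limma adjusted p = 0.0297), to 82.2% of the WT signal. With 1 array removed at a time, the call was lost for 7 of 8 arrays, with a limma adjusted p of up to 0.0842 (without KO replicate 2), and was kept without KO replicate 1 (-0.33, limma adjusted p = 0.0159).

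Rom1 had levels of 8.43, 8.40, 8.47 and 8.38 in WT and 8.26, 8.16, 8.27 and 8.16 in KO. The groups did not overlap. The difference was -0.21 (SE 0.044, limma adjusted p = 0.0385), which met the p threshold but not the minimum fold change. Prph2 and Rom1 assemble together, so their difference within each array, which scaling by a constant cannot alter, was compared between genotypes as 1 of 2 such pairs. With the brighter Prph2 probe the WT arrays gave 0.26 ± 0.023 and the KO arrays 0.20 ± 0.20 (n = 4, mean ± SD). The exact permutation test, two-sided, gave p = 0.657 (also 0.657 adjusted over the 2 pairs). The shift of -0.059 had an exact interval of -0.35 to 0.16, turned to 0.027 without KO replicate 2 and was -0.19 after normexp and quantile normalization (exact permutation p = 0.114). With the other Prph2 probe the values were -0.41 ± 0.014 in WT and -0.49 ± 0.058 in KO (n = 4; exact permutation p = 0.0857), a shift of -0.077 with an interval of -0.14 to 0.021. Neither probe showed the partners to part beyond the spread between samples. The smallest p that 4 against 4 samples allow is 0.0286, and the intervals cover 97.1%.

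The proteoglycans of the interphotoreceptor matrix gave the widest range. Impg2 had levels of 4.52, 4.58, 4.61 and 4.57 in WT and 4.33, 4.29, 4.32 and 4.26 in KO. The groups were well separated and narrow. Impg2 fell by 0.27 on the log2 scale (SE 0.037, limma adjusted p = 0.0122), to 83.0% of the WT signal, and only 5.95% of tested probes had a difference as low or lower. With 1 array removed at a time, the call was lost for 2 of 8, namely without WT replicate 3 (-0.254) and without KO replicate 4 (-0.257), where the adjusted p stayed under 0.05 and the fold change was too small. It was lost in the same way under each other scaling, with -0.26 for a median shift and for the authors' values, -0.25 for the 75th percentile of detected probes and -0.22 to -0.21 for cyclic loess, quantile normalization and normexp. Impg1, the dimmest of these probes against its array, had levels of 1.22, 1.06, 1.21 and 0.98 in WT and 1.097, 0.89, 1.07 and 1.02 in KO. The groups overlapped. Its difference of -0.099 (SE 0.072, limma adjusted p = 0.447) was not called, with an interval of -0.26 to 0.067, and it was -0.055 without KO replicate 2 and -0.15 without WT replicate 4.

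The difference of Impg1 minus Impg2 within each array was -3.30, -3.52, -3.40 and -3.59 in WT and -3.23, -3.40, -3.25 and -3.24 in KO. It was higher in KO by 0.17 on average, but KO replicate 2 lay within the WT range (n = 4 per genotype; two-sided exact permutation p = 0.0571, 0.114 adjusted over the 2 pairs). The exact interval of this shift was -0.11 to 0.36, so equal change and a smaller decrease of Impg1 were both within it.

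**Figure D2:**
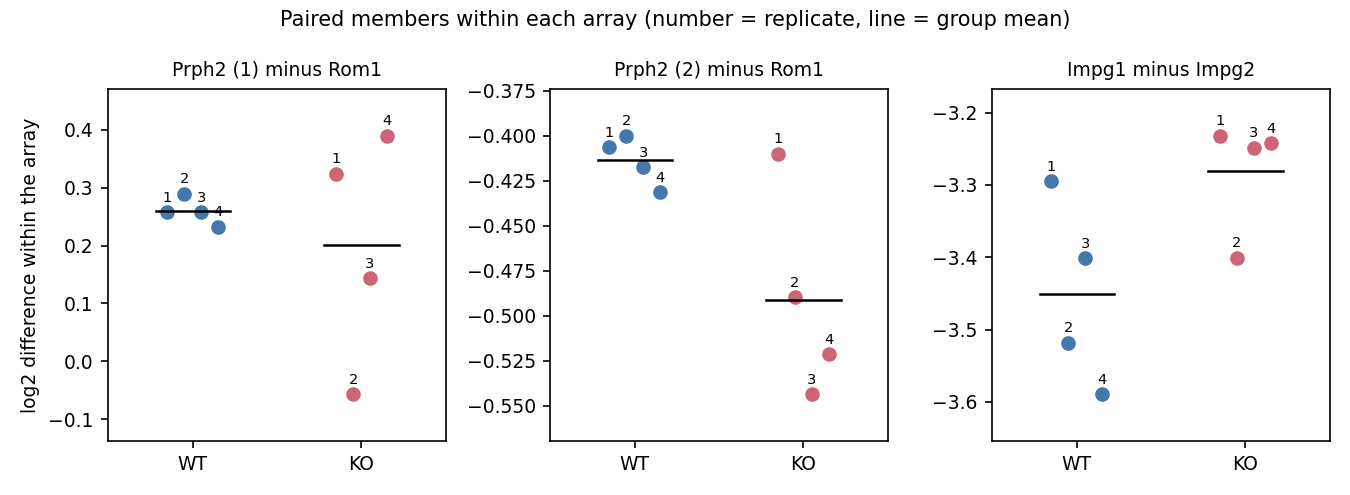
Log2 difference between partner genes within each array (vertical axis, a separate scale in each panel) for WT and KO (numbers are replicates, lines are group means). The KO values of both Prph2 panels spread over a wider range than WT, and in the Impg1 minus Impg2 panel KO replicate 2 lies among the WT values.

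Of the genes of disc formation, Prom1, Rp1 and Cdhr1, 0 of 5 probes were called, and all differences were below the minimum fold change. Prom1 had levels of 6.95, 6.89, 6.90 and 6.93 in WT and 6.71, 6.72, 6.71 and 6.68 in KO at its brighter probe. Each group spanned under 0.1, and the gap between them was wider than either. This probe differed by -0.21 (SE 0.034, limma adjusted p = 0.0180), against -0.22 (SE 0.055, limma adjusted p = 0.0544) at the other probe, which is assigned to another transcript of the gene. Rp1 ranged from 5.61 to 5.69 among WT samples and from 5.45 to 5.56 among KO samples at its brighter probe, and 4.55 to 4.62 in WT and 4.42 to 4.47 in KO at the other. At both, the groups did not overlap. The differences were -0.15 (SE 0.040, limma adjusted p = 0.0667) and -0.15 (SE 0.035, limma adjusted p = 0.0499). Cdhr1 read 6.04 to 6.15 in WT and 5.83 to 6.05 in KO. KO replicate 4, at 6.05, lay within the WT range. Its difference of -0.16 (SE 0.057, limma adjusted p = 0.144) was not called.

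The disc and transport proteins showed differences of the same order. Prcd had levels of 5.87, 5.86, 5.87 and 5.88 in WT and 5.70, 5.63, 5.68 and 5.63 in KO at its brighter probe. The WT samples lay closer together than in any other member, with an SD of 0.0061. Its differences were -0.21 (SE 0.034, limma adjusted p = 0.0205) and -0.23 (SE 0.042, limma adjusted p = 0.0248) at the 2 probes, both short of the minimum fold change. Unc119 read 7.83, 7.70, 7.82 and 7.77 in WT and 7.63, 7.58, 7.63 and 7.53 in KO, without overlap. The difference was -0.19 (SE 0.045, limma adjusted p = 0.0507), just outside the p threshold. Aipl1 ranged from 3.76 to 3.98 among WT samples and from 3.53 to 3.86 among KO samples. WT replicate 1 was the low sample of its group and lay among the KO values. The difference of -0.18 (SE 0.086, limma adjusted p = 0.261) was not called and ran from -0.22 without WT replicate 1 to -0.11 without KO replicate 1.

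Where a gene had 2 probes, they gave nearly equal differences. The gap between the probes was 0.018 for Prph2, 0.0029 for Rp1, 0.011 for Prom1 and 0.023 for Prcd, whereas the 10 genes ranged over 0.17. The probes of a gene read the same RNA sample on the same array and are not replicates. Among genes, the order by brighter probe was Impg2, Prph2, Prom1, Prcd, Rom1, Unc119, Aipl1, Cdhr1, Rp1 and Impg1, from the lowest difference to the highest. The 95% limma intervals of neighbours in this order overlapped throughout, and those of Impg2 (-0.36 to -0.18) and Impg1 (-0.26 to 0.067) overlapped as well.

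**Figure D3:**
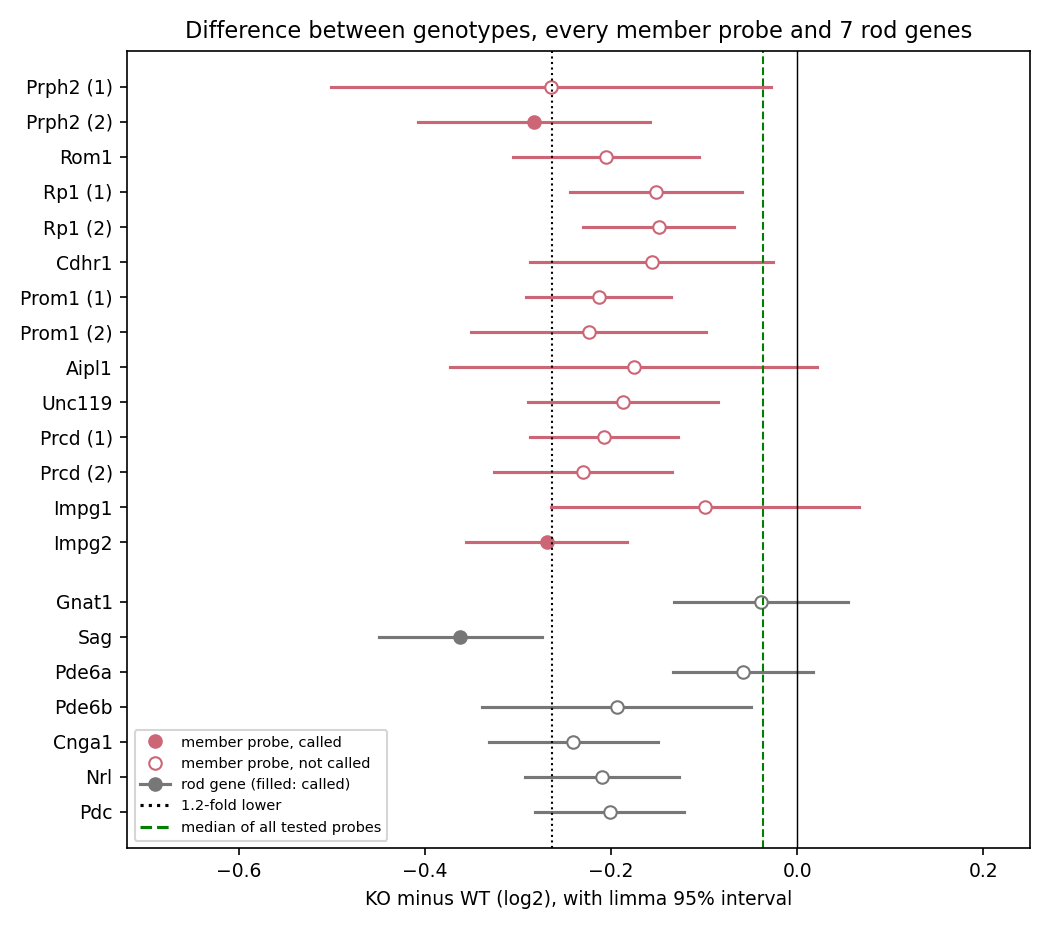
KO minus WT on the log2 scale (horizontal axis) with the 95% interval of limma for the 14 member probes (red) and 7 rod genes (grey), filled where called. All member values lie left of 0, those of Impg2 and both Prph2 probes lie beyond the dotted line of 1.2-fold, and the rod genes range more widely, from -0.36 to -0.039.

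Among samples of 1 genotype, the members moved together most clearly in KO replicate 2. The mean over the 10 genes was 5.89, 5.88, 5.93 and 5.89 in WT and 5.73, 5.63, 5.74 and 5.72 in KO. KO replicate 2 was the lowest sample, with 1 of 10 members above its KO mean, whereas 8 of 10 were above it in KO replicate 1 and in KO replicate 3. That array also had the fewest probes well above background (33117, against 33500 to 36373 on the other arrays) and the highest signal at the 75th percentile (737.8, against 638.4 to 715.9), and the part of these values in its low level was not tested. Without it the median difference of the 10 genes was -0.17, and 14 of 14 probes were still lower.

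To ask whether the members moved by more or less than rod transcripts as a whole, 8 genes known for rod identity and phototransduction were used as a reference, among them Gnat1, Sag, Pde6a, Pde6b, Cnga1, Nrl and Pdc. The 7 named genes were all lower in KO. Sag, the rod arrestin, was called (-0.36, SE 0.038, limma adjusted p = 0.0052). At the other end Gnat1 (-0.039) and Pde6a (-0.058) showed differences that were not called (limma adjusted p = 0.603 and 0.328). The mean level of the 8 genes was 7.10 to 7.15 in WT and 6.90 to 6.95 in KO, a difference of -0.20, close to the members' median of -0.20. After this rod mean was subtracted from every probe on each array, limma called 0 of 14 member probes, while 18.4% of all tested probes were called, 18.1% higher and 0.324% lower. An unadjusted p under 0.05 was reached by 0 of 14 probes, and the unpaired test named in the methods also called 0. The relative differences ran from -0.080 (Prph2, the less bright probe) to 0.10 (Impg1), with a median of 0.0062 over 1 probe per gene. The 95% interval was -0.16 to 0.025 for Impg2, -0.11 to 0.099 for Rom1 and -0.29 to 0.16 for the brighter Prph2 probe. Shifts against the rod genes within these intervals are not excluded.

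**Figure D4:**
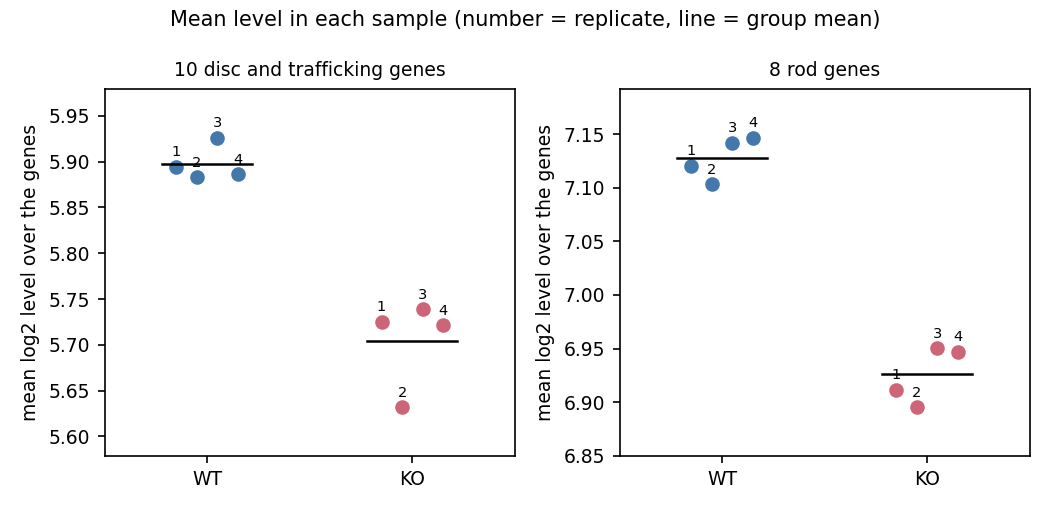
Mean log2 level (vertical axes) of the 10 members and of the 8 rod genes in each sample, numbered by replicate, with group means as lines. In both panels all KO samples lie below all WT samples.

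The size of the decrease depended on how the arrays were scaled, and its direction did not. The members' median was -0.19 with a median shift, -0.18 with the 75th percentile of detected probes and -0.18 in the values deposited by the authors, but -0.12 with cyclic loess, -0.097 with quantile normalization and -0.085 with normexp background correction followed by quantile normalization. In each of these, 14 of 14 probes were lower. The rod mean moved alongside, to -0.12, -0.088 and -0.082 under the last 3 of these settings. Under those 3, limma called 0 members, with 8, 8 and 7 of 14 probes at an unadjusted p under 0.05, against 7358, 7325 and 7079 of all 33975 probes. The balance of calls over all probes moved too, from 471 higher and 522 lower to 628 and 339, 528 and 385, and 439 and 270 in the same order, and to 566 and 370 with the 75th percentile of detected probes.

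**Figure D5:**
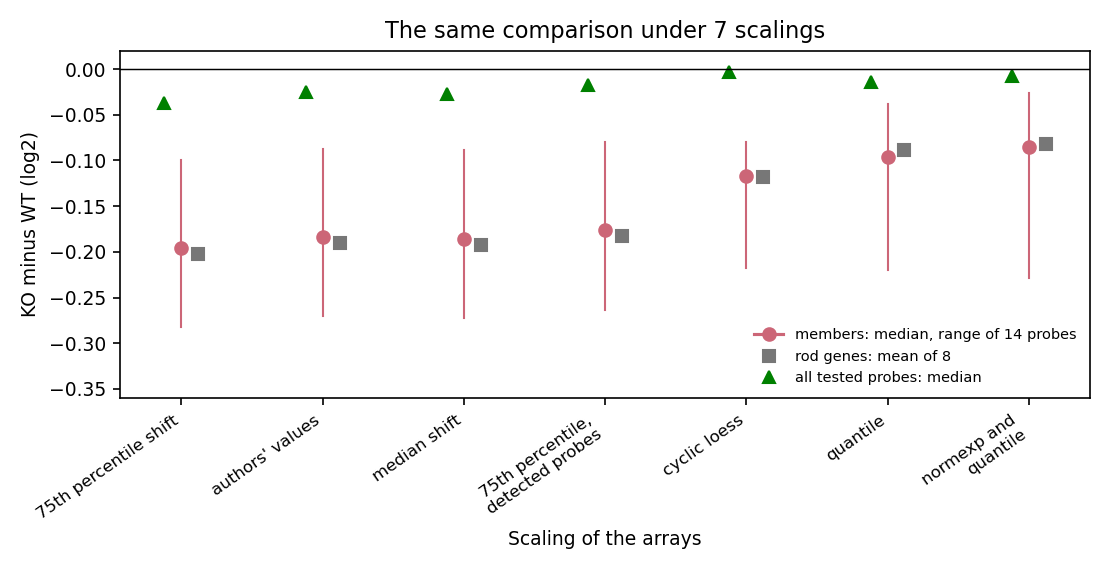
KO minus WT on the log2 scale (vertical axis) under 7 scalings of the arrays: the median of the 10 members with the range of their 14 probes (red), the mean of the 8 rod genes (grey) and the median of all tested probes (green). The members and the rod genes shift together, from about -0.20 to about -0.08, and stay below 0 and below the median of all tested probes.

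Other genes of the outer segment were read from a list chosen by function. Of 36 such genes, all tested, 30 were lower and 6 higher in KO, with a median of -0.094, and 2 were called lower and 0 higher. Over all 14940 named genes tested, 57.9% were lower, the median was -0.023, and 222 were called lower and 298 higher. Outside the rod reference, which shares genes with this list, 25 of 31 were lower and 1 was called. Among the called genes was Fscn2, an actin-bundling fascin of photoreceptors. It had levels of 1.71, 1.80, 1.76 and 1.83 in WT and 1.24, 1.35, 1.33 and 1.35 in KO, far apart, a difference of -0.46 (SE 0.043, limma adjusted p = 0.0040). By role, the median was -0.14 for 7 genes of the disc membrane and rim and -0.15 for 8 genes of the axoneme and disc formation. It was -0.059 for 14 genes listed under lipid-binding transport and chaperones, which include motors, Rab proteins and guanylate cyclases. For 4 clients of the chaperones it was -0.13, and for 3 matrix genes -0.10. In these groups 1, 1, 0, 0 and 0 genes were called by limma. Opposite to the members lay Rd3, which controls the trafficking of photoreceptor guanylate cyclase, at 0.26 (SE 0.057, limma adjusted p = 0.0421, short of the minimum fold change). Rd3 was singled out after its values were seen.

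The genes whose levels followed the members' mean most closely over the 8 arrays were Galk1, a galactokinase (r = 0.998), Nrl, the rod transcription factor (0.993), Ndrg1 (0.991), Nudt8 (0.988) and Nrtn, the growth factor neurturin (0.987), of 14930 genes compared. Within genotypes, after each group mean was removed, r was 0.982, 0.946, 0.921, 0.874 and 0.933. These values are descriptions over 8 arrays that share 1 slide and their scaling. The differences of these genes ran from -0.43 (Nrtn, called) to -0.21 (Galk1, not called).

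Several facts of the whole series bear on these values. All 8 arrays shared 1 slide and 1 scan day, with WT in row 1 and KO in row 2, so slide row and genotype cannot be told apart. Saturation was seen at 0 spots, the bright Prph2 and Rom1 probes included. The single Lpcat1 probe was lower in KO (-0.46, SE 0.042, limma adjusted p = 0.0037) with 72.5% of the WT signal left, and its place relative to the deleted part is not settled. Markers of every main retinal cell type were tested and above background. Cone markers were higher in KO (7 of 7 genes, 2 called, array means 3.38 to 3.39 for WT, 3.59 to 3.72 for KO), as were Müller glia markers (5 of 6, 2 called, 3.94 to 4.01 and 4.14 to 4.20) and microglia markers (6 of 6, 3 called, -0.33 to -0.17 and 0.048 to 0.13). The median was 0.049 for bipolar, 0.081 for amacrine and horizontal, 0.027 for ganglion cell and -0.17 for endothelial markers, with 0 genes called by limma in each. Markers of neighbouring tissues were few or overlapped between genotypes: 6 of 7 pigment epithelium genes were tested (0.18 to 0.51 in WT, 0.15 to 0.62 in KO), 3 of 6 lens genes (-3.49 to -2.97 and -3.56 to -3.10) and 4 of 4 blood genes (-0.36 to 0.083 and -0.21 to 0.18), with 0 called. The part of these shifts in the members' decrease was not tested.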

How the data were processed

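RNA of each whole retina sample was labelled with Cy3 and hybridised to an Agilent SurePrint G3 mouse array, and the scans were read, per the labels, with version 10.7.1.1 of Agilent Feature Extraction. Intensity is what the deposited scanner files give, on a linear scale (62976 spots), background-subtracted and detrended within each array but not scaled between arrays. The authors' deposited table holds log2 values after a 75th percentile shift in GeneSpring. It differed from the levels computed here by a constant per array (0.12 to 0.15, SD at most 3.01e-07) and served as an alternative. Columns of samples left out: 0.

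Processed signals were put on the log2 scale and shifted by the 75th percentile of each array (59305 spots, controls excluded), without a pseudocount. Control spots (3671) and outlier spots (86 to 147 per array) were left out, with 0 outliers among the members, and repeated spots were averaged. Symbols came from RefSeq transcripts (assembly GRCm38.p6; the array design is on mm9) and named 26413 probes (47.4%). Probes well above background on all 4 arrays of a genotype were tested with limma 3.58.1 in R 4.3.3, with no covariates and Benjamini-Hochberg adjustment over all tested probes. The thresholds (fold change over 1.2, adjusted p under 0.05) follow a figure legend of the study. The fit was tested on simulated data. Within-array pairs were compared by exact permutation, and the exact interval holds the shifts at which the genotypes would still overlap. Precision is limited by the small number of arrays.

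Every member probe is described. Other genes are named if they are rod reference genes, called genes of the outer segment list, the 5 genes most like the members' mean by Pearson's r, or Lpcat1. Rd3, outside this rule, was chosen after its values were seen. Some genes of these lists enter the counts, medians and means but are not reported here by name. The members and lists were chosen with earlier results of these data known. Alternatives were 5 other scalings or background corrections, 2 other filters, kept outlier spots, the methods' t-test (unpaired), limma with a trend and robust eBayes, array weights, the replicate number as a block, the authors' values, other thresholds, a reduced rod reference, averaging the probes of a gene, and removal of each array in turn. The rod-relative fit under cyclic loess, quantile normalization and normexp was added after seeing the data.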

Additional observations from a re-analysis of the deposited data

Results flagged for a closer look

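Of 38 sets of 4 samples of 1 genotype checked for a sample far from the others, 2 were marked, both for KO replicate 2, and chance marks about 1 in 20. The mean level of the 10 members was 5.63 in that sample, against 5.72 to 5.74 in the other KO samples. The difference of Impg1 minus Impg2 was -3.40 there, against -3.25 to -3.23 in the others. Without this sample the members' median difference was -0.17, and the shift of Impg1 minus Impg2 was 0.21.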

How the results depend on the processing

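Over 24 alternatives, 332 values of single member probes or genes were recomputed, and 332 of 332 were lower in KO. Of these, 307 kept their side of the threshold, 24 lost a call and 1 gained it. Changes of filter, threshold or variance estimate, the t-test, the block and kept outlier spots left each difference as it was. The sign was thus fixed under these settings, and the runs without 1 array reuse the other arrays. The 332 values are therefore not separate evidence of direction. The number of members called, 2 as reported, was 1 with a median shift (Prph2), 1 with the 75th percentile of detected probes, 1 with the authors' values, and 0 with quantile normalization, cyclic loess, normexp, no filter on dim probes, a minimum fold change of 1.5 and the replicate block. Impg2 was the member lost under the first 3 of these settings. With no filter, 12 of 14 probes had an unadjusted limma p under 0.05, against 12716 of all 55681, and with the block 13 of 14, against 8948 of all 33975. When each array was left out it ran from 0 (without WT replicate 3 or KO replicate 4) to 2 (without KO replicate 1), and was 1 without any other array. The members' median was -0.097 with quantile normalization, -0.12 with cyclic loess and -0.085 with normexp, and -0.21 to -0.17 over the runs that left out an array. Calls over all probes numbered 993 as reported, 247 with no filter, 394 with the block, 139 at a fold change over 1.5, 3137 at an adjusted p under 0.5, and 369 (without WT replicate 2) to 1180 (without KO replicate 1) over single arrays. Apart from the fewer or more probes tested and the thresholds themselves, the cause was not tested. Relative to the rod genes, 0 members were called under every alternative run, the lowest limma adjusted p being 0.0675. The shift of Prph2 minus Rom1 ran from -0.12 to 0.027 over single arrays, turned positive without KO replicate 2 and was -0.19 with normexp, and that of Impg1 minus Impg2 from 0.12 to 0.22, where exact tests of 3 against 4 samples cannot pass the threshold.

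Replicate numbers are shared between genotypes and equal the slide column, but nothing in the labels ties them to a shared litter or day. Deviations from the group means of same-numbered samples correlated at 0.23, 0.055, 0.026 and 0.10, all above 0 but not all above 0.1. Of 8 samples, 7 (all but WT replicate 3) correlated best with their own number. The main fit left the samples unpaired all the same, and an effect of the slide column was not tested. As an alternative, the block called 394 probes and 0 members, against 993 and 2 in the main fit. With the replicate block, Impg2 kept its difference of -0.27 at a limma adjusted p of 0.0543 and the less bright Prph2 probe its -0.28 at 0.0577. Paired exact tests gave p = 0.75 for Prph2 minus Rom1 and p = 0.125, the smallest they allow, for Impg1 minus Impg2.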
